A study of Mus musculus with 6 samples.

Results

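The interleukin-6 (IL-6) family was followed in cultured mouse biliary epithelial cells through 10 genes, taken by symbol from the 32061 genes of the count table: the ligand genes Il6, Il11, Lif and Clcf1, the receptor genes Il6ra, Il6st, Lifr and Osmr, the transcription factor gene Stat3 and the feedback inhibitor gene Socs3. All 10 symbols were found, and 9 of the 10 genes had enough counts to be tested. Messenger RNA had been sequenced from 3 samples of cells competent for primary cilia, grown without 4OHT, and from 3 samples depleted of primary cilia, grown with it. The name 4OHT commonly stands for 4-hydroxytamoxifen, which activates Cre recombinases fused to a modified oestrogen receptor. The labels give no genotype, Cre driver, strain, age or time after treatment. All samples shared their origin, in bile ducts picked by hand from mouse liver, passaged as organoids and then plated on collagen. No label ties the samples to separate cultures or animals, so a p-value here reflects the spread among these 6 samples alone, possibly a technical one, and effects of 4OHT and of cilium loss cannot be told apart.

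Nearly all cytokines of the IL-6 family signal through receptor complexes that share the subunit gp130, the product of Il6st. Ligand binding activates JAK kinases on the receptor tails, which phosphorylate STAT3, and STAT3 then enters the nucleus and raises its target genes, Socs3 among them, whose product shuts the receptor off. In bile ducts this pathway is known for its part in the response of the epithelium to injury, and IL-6 is often counted among the factors that senescent cells secrete.

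In the depleted cells, 7 of the 9 genes tested rose and 0 fell at an adjusted p below 0.05, by edgeR's quasi-likelihood test, adjusted by Benjamini and Hochberg's method across every tested gene. Across all 13839 genes tested, 69.2% passed by the same rule, 34.9% as higher and 34.3% as lower; the share of members called in either direction is close to that background. The ligand genes Lif and Clcf1, the receptor gene Il6ra and the inhibitor gene Socs3 rose by more than 2-fold, 4 of the 9 tested, where 7.38% of all genes tested did so, and 0 fell by more than 2-fold, where 2.49% of all genes did so. The groups did not overlap for 7 of the 9, against 72.5% of all genes tested. Osmr, Stat3 and Il6st rose by less. Il11 and Lifr did not pass, and Il6 itself had at most 2 reads in any sample. The median log2 change of the 9 was 0.67, against -0.006 over all genes tested. The members were chosen with earlier results of these data known, so these contrasts with all genes are no independent evidence of direction. With upper-quartile scaling 7 members rose and 0 fell (32.0% and 37.8% of all genes). In these libraries the log2 change also varied with the exon length of a gene, and with that trend removed 6 members rose and 1, Lifr, fell (29.2% and 40.1% of all genes).

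Total counts were 26293486 to 36998935 per sample, and CPM are read counts scaled to a common library total. On these raw totals 3 counts, taken as the limit that a count of 0 allows, corresponded to 0.0811 to 0.114 CPM. The other CPM values are scaled by TMM, so the limits differ slightly on their scale. Such limits cover counting error only. Wdr35, the gene taken as the target from knowledge of the study and not from the labels, had raw counts of 1211, 1148 and 1200 in competent and 739, 914 and 925 in depleted samples, a log2 change of -0.25 (adjusted p = 0.00245), but reads summed over all exons cannot show the loss of a single exon. The 10 biliary epithelial markers examined were all present and summed to 17800 to 18900 CPM in competent and 16700 to 18100 CPM in depleted samples. Of these, 3 rose and 5 fell, where 34.9% of all genes tested rose and 34.3% fell. Krt7, Krt19 and Epcam were among those that fell (log2 changes -0.35, -0.57 and -0.90). Of 8 leukocyte markers, 5 had at most 3 counts in every sample, including Adgre1 and Cd3e. The sum of the 8 was 50.6 to 50.9 CPM in competent and 45.5 to 51.3 CPM in depleted samples, nearly all of it from Csf1r. Csf1r shares 15.1% of its exon length with Hmgxb3 on the other strand, and the strand setting of the counts is not given. Of the 2 tested, Cd68 rose (log2 change 0.65, adjusted p = 0.000457) and Csf1r fell (log2 change -0.13, adjusted p = 0.0496), against the same shares of all genes. Of 6 fibroblast and stellate markers, Col1a2 and Col3a1 had 0 counts in all samples, and the sum of the 6 was 1.27 to 1.56 CPM in competent and 2.72 to 3.49 CPM in depleted samples, nearly all of it from Col1a1. The part of these cells in the values below was not tested. In bulk RNA, fewer cells that express a gene and less of its RNA per cell cannot be told apart.

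**Figure D1:**
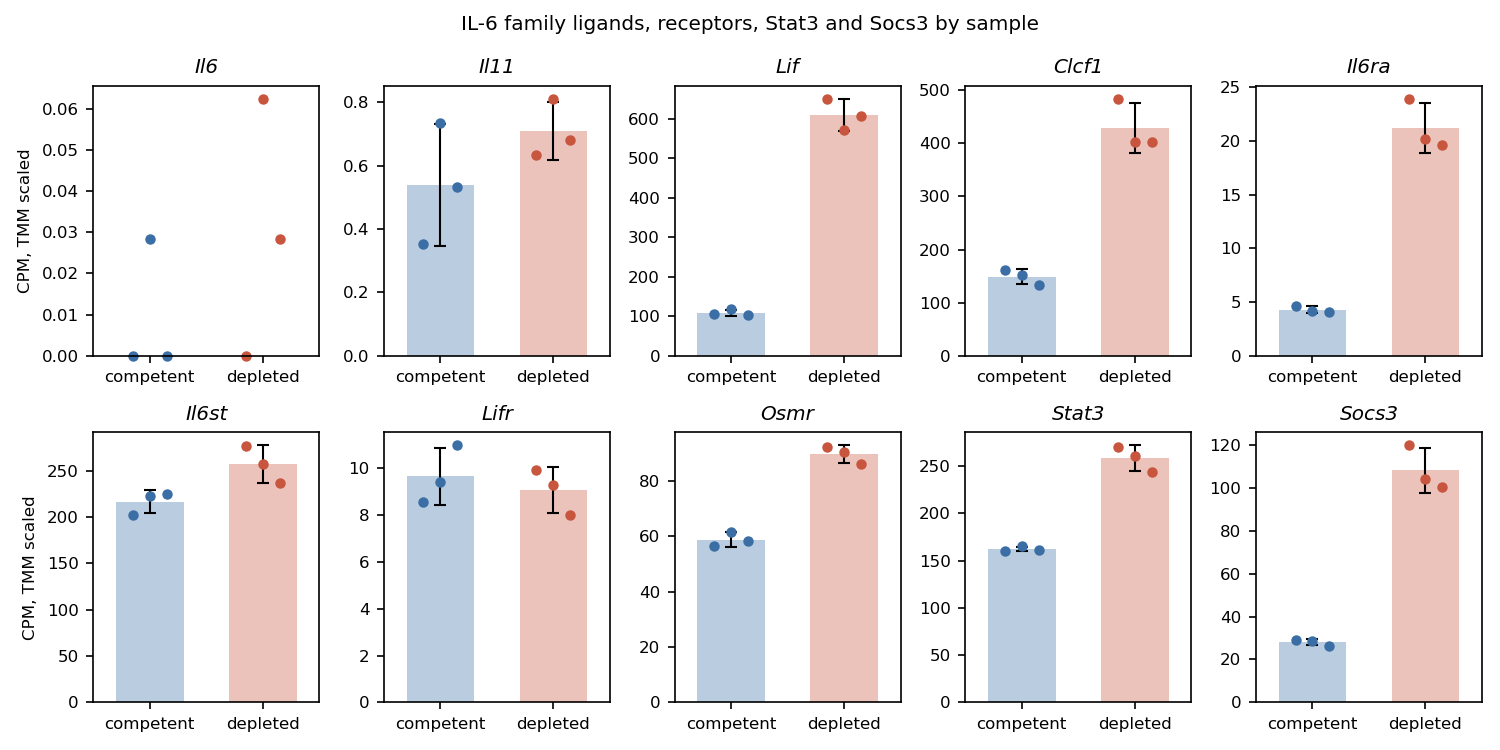
Each panel shows 1 gene in the 3 competent (blue) and 3 depleted (red) samples, in CPM scaled by TMM on a linear axis from 0; points are samples, bars and error bars are mean and SD, and Il6 is shown by points alone. The groups do not overlap for Lif, Clcf1, Il6ra, Il6st, Osmr, Stat3 and Socs3, whereas Il6, Il11 and Lifr overlap.

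Sequence upstream of the ligand and feedback genes is shown for Il6, Lif and Socs3 because 1 stayed near 0 counts and the others rose by more than 2-fold. The windows are the 250 bases before the RefSeq start site on GRCm38.p6, printed 5′ to 3′ on the strand of the gene, with capitals on the motif matches. The Socs3 window lies within the annotated gene span given below, which reaches beyond the RefSeq start.
Il6, chr5:30012864-30013113, plus strand: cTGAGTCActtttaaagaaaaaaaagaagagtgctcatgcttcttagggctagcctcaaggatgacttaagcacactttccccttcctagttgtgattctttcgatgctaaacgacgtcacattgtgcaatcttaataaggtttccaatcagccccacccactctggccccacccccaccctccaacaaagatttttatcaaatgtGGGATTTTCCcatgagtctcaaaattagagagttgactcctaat
Lif, chr11:4257318-4257567, plus strand: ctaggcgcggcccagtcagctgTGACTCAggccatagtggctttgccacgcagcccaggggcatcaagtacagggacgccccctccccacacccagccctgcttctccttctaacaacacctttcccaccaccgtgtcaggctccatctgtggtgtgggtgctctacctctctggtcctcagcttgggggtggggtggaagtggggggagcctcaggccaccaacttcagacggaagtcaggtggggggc
Socs3, chr11:117969367-117969616, minus strand: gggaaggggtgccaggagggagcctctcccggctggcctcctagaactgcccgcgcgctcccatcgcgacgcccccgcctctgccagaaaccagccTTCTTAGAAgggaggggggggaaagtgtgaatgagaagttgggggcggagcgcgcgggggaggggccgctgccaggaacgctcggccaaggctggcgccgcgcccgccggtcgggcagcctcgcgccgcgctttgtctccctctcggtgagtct
Windows were found for 9 of the 10 genes, 11 windows in all; Clcf1 had none. Each was searched on both strands for a STAT motif (TTCNNNGAA, the same on both strands), an AP-1 motif (TGACTCA, or TGAGTCA on the other strand), a cAMP response element (TGACGTCA), an NF-kB motif (GGGA, any base, then TTTCC) and an EGR motif (GCGTGGGCG). Among the 32851 promoter windows of the same length, 7.02% held the STAT motif, 4.46% the AP-1 motif, 1.55% the cAMP response element, 0.356% the NF-kB motif and 0.536% the EGR motif. The Socs3 window held a STAT match, TTCTTAGAA, at position -154, counted from the start site to the first base of the match. The Lif window held an AP-1 match at position -228. The Il6 window held an AP-1 match at position -249 and an NF-kB match, GGGATTTTCC, at position -44. Of the 2 windows of Il11, 1 held an AP-1 match. The windows of Il6ra, Il6st, Lifr, Osmr and Stat3 held no match to any of these motifs, although Il6ra rose by more than 2-fold. These are matches of letters and say nothing of binding in these cells.

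The mRNAs of 3 of the 4 ligand members also shared a sequence at their other end. The nonamer TTATTTATT, the core of the AU-rich element by which short-lived cytokine mRNAs are recognised for decay, was found in the 3′ UTR of Il11, Lif and Clcf1 and of no other member, in the annotated coding transcript with the longest coding sequence. Of 12734 tested genes with a 3′ UTR, 7.26% held it. The earliest nonamer of each is shown in capitals with its flanks; it begins at base 47 of the 3′ UTR in Il11, 2715 in Lif and 840 in Clcf1.
Il11: aaaccagatcTTATTTATTtatttatttt
Lif: aaaggggcctTTATTTATTatttaaaact
Clcf1: gtattaatatTTATTTATTtggagatgtt
Il11 held 5 such nonamers in 1194 nt, Lif 2 in 3180 nt and Clcf1 2 in 922 nt; overlapping copies count separately. Il6 held 0 nonamers but 6 copies of the pentamer ATTTA in its 427 nt, whereas the median tested gene held 1 pentamer in a 3′ UTR of median length 976 nt. The receptor genes Il6st and Lifr, with the longest 3′ UTRs of the family at 5641 and 6320 nt, held 9 and 11 pentamers and 0 nonamers. Lif and Clcf1, which rose, and Il11, which did not pass, thus carry the same nonamer.

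Lif encodes leukaemia inhibitory factor, which signals through gp130 and the LIF receptor. Lif (ENSMUSG00000034394; GRCm38 chromosome 11, 4257557 to 4272514, plus strand) was at 107, 118 and 104 CPM in the competent samples and at 651, 572 and 607 CPM in the depleted samples. Every depleted sample was far above every competent one. The means were 109.9 ± 7.51 and 610.1 ± 39.55 CPM (SD, n = 3 each), a 5.55-fold rise (log2 change 2.47 with SE 0.06, adjusted p = 1.20e-12). Of the 13839 genes tested, 104 (0.751%) had a larger log2 change than Lif.

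Clcf1 encodes cardiotrophin-like cytokine factor 1, which acts through the CNTF receptor with gp130 and the LIF receptor. Clcf1 (ENSMUSG00000040663; chromosome 19, 4214238 to 4223490, plus strand) was at 161.5, 152 and 133 CPM in competent and at 484, 402 and 402 CPM in depleted samples. The depleted samples were all higher, with replicate 1 the highest. Clcf1 went from 148.9 ± 14.3 to 429 ± 47.2 CPM and so rose 2.88-fold (log2 change 1.53 with SE 0.08, adjusted p = 1.78e-09). Reads of the gene of its binding receptor were scarce: Cntfr, which was not tested, had 22 reads in the competent samples together and 4 in the depleted ones, a ratio of 0.21 after scaling by depth (95% interval 0.0526 to 0.619, for counting error only).

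Il6, the gene of the cytokine that names the family, was near absent from the libraries. Il6 (ENSMUSG00000025746; chromosome 5, 30013114 to 30019981, plus strand) had 0, 1 and 0 reads in competent and 0, 2 and 1 reads in depleted samples. All 6 values lie under the 3-count limit, Il6 was not tested, and a difference between the groups was not detectable at this depth. Il11, the gene of interleukin-11, was low as well (ENSMUSG00000004371; chromosome 7, 4772373 to 4782859, minus strand), with 12, 26 and 20 reads in competent and 16, 26 and 24 reads in depleted samples. The groups overlapped, at 0.352 to 0.736 CPM against 0.634 to 0.811 CPM, and the log2 change of 0.39 (SE 0.31, adjusted p = 0.278) did not pass.

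The other ligand genes of the family gave little signal. Of 8 listed, 3 had enough counts to be tested, 0 rose and 1 fell, where 34.9% of all genes tested rose and 34.3% fell. Ctf1, which encodes cardiotrophin-1, fell 1.65-fold, from 2.5 ± 0.27 to 1.49 ± 0.402 CPM (log2 change -0.72, adjusted p = 0.00618). Cntf did not pass (adjusted p = 0.307), and most of the exon length of Cntf (78.9%) is shared with Zfp91 on the same strand, so its counts are uncertain. Osm, the gene of oncostatin M and the principal ligand of OSMR, had 0 reads in all 6 samples, as had Il27 and Il31. Ebi3 had at most 6 reads in a sample and Ctf2 at most 2.

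Among the receptors the largest rise was that of Il6ra, the gene of the IL-6 binding subunit, which gives a cell its own response to IL-6. Il6ra (ENSMUSG00000027947; chromosome 3, 89864059 to 89913196, minus strand) was at 4.64, 4.19 and 4.04 CPM in competent and at 23.9, 20.1 and 19.6 CPM in depleted samples. The groups were well apart, from raw counts of 148 to 158 and of 603 to 692. With means of 4.29 ± 0.313 and 21.2 ± 2.34 CPM Il6ra rose 4.93-fold (log2 change 2.30 with SE 0.10, adjusted p = 3.36e-10), and 122 genes tested (0.882%) had a larger log2 change.

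Il6st encodes gp130, the signalling subunit that IL-6, IL-11, LIF and the product of Clcf1 share. Il6st (ENSMUSG00000021756; chromosome 13, 112464070 to 112510086, plus strand) was at 202, 223 and 224.5 CPM in competent and at 277, 258 and 237 CPM in depleted samples, so the groups were close but did not overlap. Il6st rose 1.19-fold (log2 change 0.25, SE 0.06, adjusted p = 0.00223), but with the trend of log2 change with exon length removed its log2 change was -0.03 (adjusted p = 0.62). Il6st has 11099 nt of exon sequence, among the longest of the members. Its small rise therefore depended on the scaling.

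Osmr encodes the receptor subunit for oncostatin M. Osmr (ENSMUSG00000022146; chromosome 15, 6813577 to 6874969, minus strand) was at 56.5, 61.7 and 58.5 CPM in competent and at 92.5, 90.5 and 86.1 CPM in depleted samples. The samples of a group lay close together and the groups apart. Osmr rose 1.52-fold (log2 change 0.61, SE 0.05, adjusted p = 1.07e-07), or by a log2 change of 0.31 with the length trend removed (adjusted p = 9.46e-06).

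Lifr encodes the LIF receptor. Lifr (ENSMUSG00000054263; chromosome 15, 7090614 to 7197489, plus strand) was at 8.57, 9.42 and 11.0 CPM in competent and at 9.90, 9.29 and 7.99 CPM in depleted samples. The groups overlapped, and the log2 change of -0.10 (SE 0.11, adjusted p = 0.44) did not pass, although with the length trend removed Lifr fell (log2 change -0.37, adjusted p = 0.00471). Lif thus rose where the gene of its receptor did not, under either scaling.

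Of 5 further receptor genes listed, 2 were tested and both fell, where 34.3% of all genes tested fell. Il11ra1, the gene of the IL-11 binding subunit, fell 1.32-fold from 16.8 ± 0.297 to 12.8 ± 1.54 CPM (log2 change -0.40, adjusted p = 0.000809), and Il11ra2 had a log2 change of -0.47 (adjusted p = 0.0146). These genes are close copies between which reads can be split, so their separate values are uncertain, and the call of Il11ra2 was lost with the length trend removed (adjusted p = 0.175), without competent replicate 1 (0.054) or without depleted replicate 1 (0.0583). The proteases that cut cytokine receptors from the cell surface, ADAM10 and ADAM17, were lower in mRNA. Adam10 fell by 0.35 on the log2 scale, from 276.5 ± 3.75 to 217.5 ± 6.39 CPM (adjusted p = 5.34e-06), and Adam17 fell by 0.55, from 27.9 ± 1.06 to 19.1 ± 1.4 CPM (adjusted p = 4.68e-06).

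Stat3, the gene of the transcription factor that the receptors activate, was among the more abundant members and rose modestly. Stat3 (ENSMUSG00000004040; chromosome 11, 100885098 to 100939540, minus strand) was at 160, 165 and 162 CPM in competent and at 270.3, 261 and 244 CPM in depleted samples. The competent samples lay close together and well below the depleted ones. The rise of Stat3 was 1.59-fold, with means of 162 ± 2.53 and 258 ± 13.5 CPM (log2 change 0.67 with SE 0.05, adjusted p = 2.78e-08), or by a log2 change of 0.43 with the length trend removed. These are mRNA levels and carry no measure of STAT3 phosphorylation.

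Socs3 encodes the inhibitor that binds gp130 and the JAK kinases and ends the signal; it is a direct target of STAT3 and serves as a common readout of the pathway. Socs3 (ENSMUSG00000053113; chromosome 11, 117966079 to 117970047, minus strand) was at 29.04, 28.5 and 26.4 CPM in competent and at 119.7, 104 and 100.1 CPM in depleted samples. Every depleted sample was above every competent one. The rise of Socs3 was 3.86-fold, with means of 28 ± 1.42 and 108 ± 10.3 CPM (log2 change 1.95 with SE 0.07, adjusted p = 3.42e-11), and its value hardly moved with the length trend removed (log2 change 1.96). The genes with the most similar pattern over the 6 samples, by the root-mean-square difference of log2 values from the competent mean, were Ccn1 (0.0419), Gse1 (0.0507) and Nr4a2 (0.0711). Their log2 changes were 1.94, 1.94 and 1.95. A small difference by this rule requires a similar log2 change, so that match adds nothing to it.

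**Figure D2:**
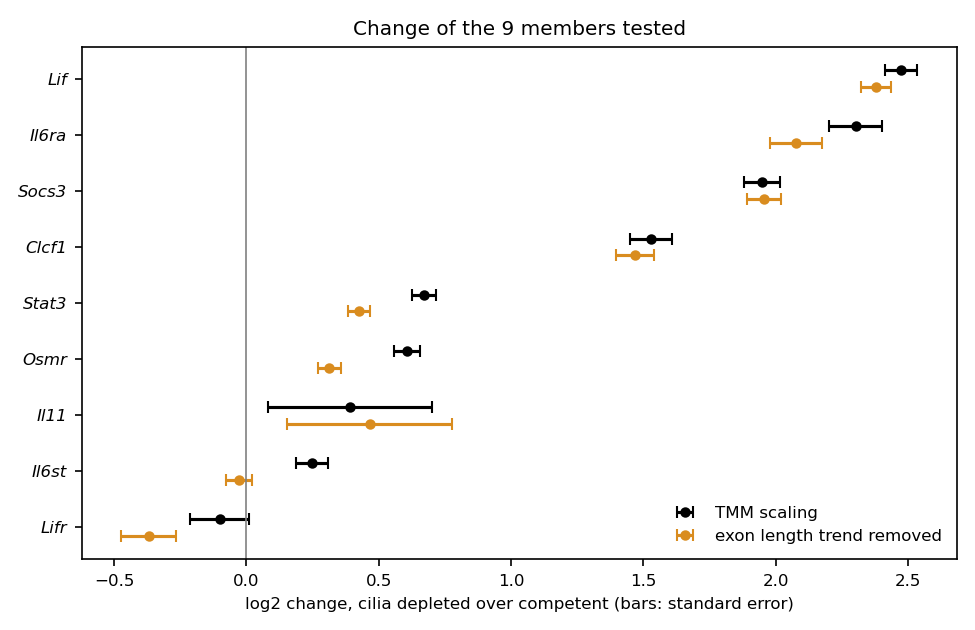
Points are log2 changes of depleted over competent cells for the 9 genes tested, with standard errors; black points are from the TMM-scaled fit and orange points from the fit with the exon length trend removed. Lif, Il6ra, Socs3 and Clcf1 lie above 1 in both, whereas Il6st moves from 0.25 to -0.03 and Lifr from -0.10 to -0.37.

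Depleted replicate 1, which had the lowest total count, gave the highest depleted value for 8 of the 10 members, whereas 34.9% of all genes tested were highest in that sample. Without it the same 7 members passed, where 9148 of all 14002 genes tested did so in either direction. The log2 changes of Lif and Socs3 were then 2.42 and 1.87. Clcf1, Il6ra and Stat3 overlap exons of another gene, over 8.17%, 2.8% and 0.76% of their exon length, and the other members overlap none.

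Levels can be compared between genes only per length, here as CPM per kilobase of exon. In competent cells Clcf1 stood highest at 39.1 ± 3.77, followed by Lif (25.3 ± 1.74), Il6st (19.5 ± 1.13), Stat3 (17 ± 0.262), Socs3 (9.68 ± 0.49), Osmr (4.86 ± 0.214), Lifr (0.896 ± 0.113), Il6ra (0.496 ± 0.0363), Il11 (0.259 ± 0.0922) and Il6 (SD, n = 3). In depleted cells Lif came before Clcf1, at 140 ± 9.09 against 113 ± 12.4, Socs3 at 37.4 ± 3.58 came before Stat3 at 27.1 ± 1.42 and Il6st at 23.2 ± 1.82, and Il6ra at 2.45 ± 0.27 came before Lifr at 0.841 ± 0.0909. No neighbours in either order overlapped in their samples. With the length of the longest transcript in place of all exons, Stat3 stood above Il6st in competent cells and above Socs3 in depleted cells, and the samples of Lif and Stat3, and of Socs3 and Osmr, overlapped in competent cells, as did those of Stat3 and Socs3 in depleted cells. Both ligand genes at the top were therefore far more abundant per length than the receptor genes Lifr and Il6ra under both lengths.

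**Figure D3:**
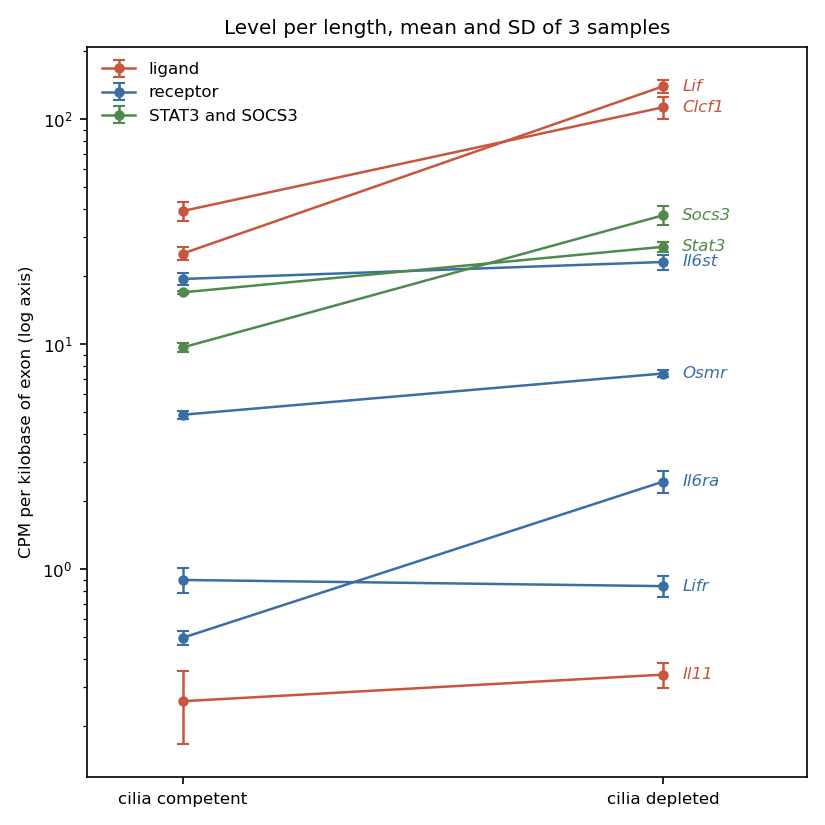
Each line joins the mean level of 1 gene in competent and depleted cells, in CPM per kilobase of exon on a log axis, with SD over 3 samples; red is for ligands, blue for receptors and green for Stat3 and Socs3, and Il6 is left out because it had at most 2 reads in a sample. Lif and Clcf1 exchange places at the top, at 140 and 113 in depleted cells, and Il6ra passes Lifr.

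The genes between receptor and STAT3 moved unevenly. Of the 4 JAK kinase genes, 2 rose and 1 fell, where 34.9% of all genes tested rose and 34.3% fell. Jak2 fell 1.44-fold from 117 ± 4.64 to 81.3 ± 3.42 CPM (adjusted p = 3.21e-07), while Jak3 rose 1.49-fold to 30.8 ± 1.24 CPM and Tyk2 rose 1.39-fold to 60.9 ± 2.56 CPM (adjusted p = 3.51e-06 and 1.70e-06). Jak1, the kinase on which gp130 signalling mainly relies, did not pass (log2 change 0.08, adjusted p = 0.109), but fell with the length trend removed (log2 change -0.12, adjusted p = 0.0195). Of the 5 other STAT genes tested, 4 rose and 0 fell, against the same shares of all genes. Stat2, which acts in the interferon response, rose 2.54-fold from 28.2 ± 6.34 to 71.7 ± 7.7 CPM, and the cytokine-activated Stat5a, Stat6 and Stat5b rose 1.71-fold, 1.27-fold and 1.26-fold.

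Inhibitors of the pathway other than Socs3 moved in both directions. Among the 16, all of them tested, 10 were higher and 3 lower past the threshold (median log2 change 0.28), where 34.9% of all genes tested were higher, 34.3% lower and 69.2% either. With the length trend removed 7 were higher and 3 lower (median 0.09), where 29.2% and 40.1% of all genes were, Socs2 turning from 0.18 to -0.06. Socs1, the other SOCS protein that blocks JAK kinases directly, rose 5.68-fold from a low level, 0.562 ± 0.0753 to 3.19 ± 0.731 CPM (adjusted p = 5.00e-07), with 18 to 22 reads in competent and 67 to 129 reads in depleted samples. Cish, a target and inhibitor of STAT5 signalling, rose 2.61-fold from 70.6 ± 2.39 to 184 ± 9.14 CPM (adjusted p = 3.29e-11). Pias4 and the phosphatase gene Ptpn2 rose 1.70-fold and 1.63-fold. Ptpn11, which encodes the phosphatase SHP2 that docks on gp130, was highest in this list and fell slightly (log2 change -0.15, adjusted p = 0.00896).

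Genes known as STAT3 targets were read from a list of 22, chosen with earlier results of these data known and so no independent evidence of direction. Of 20 tested, 14 rose and 5 fell, with a median log2 change of 0.82, where 34.9% of all genes tested rose and 34.3% fell. Hif1a is counted among the 14, but its log2 change of 0.13 turned to -0.04 with the length trend removed. Its call was also lost with upper-quartile scaling (adjusted p = 0.185) and when any of 4 samples was left out: competent replicate 1 (0.081) or 3 (0.196), or depleted replicate 2 (0.0817) or 3 (0.143). The largest changes were Fos (32.5-fold), Pim1 (10.6-fold), Junb (10.1-fold) and Cebpb (10.1-fold). The kinase gene Pim1 was at 49.0 to 61.4 CPM in competent and at 585 to 591 CPM in depleted samples (adjusted p = 1.63e-13). Cebpb, the gene of a transcription factor of the acute-phase response, was at 34.0 to 35.4 CPM in competent and at 288 to 391 CPM in depleted samples (adjusted p = 5.81e-12), although 20.7% of its exon length is shared with Tmem189, which lies on the other strand, and whether reads were counted by strand is not given in the sources used here. Pim1 shares 14.5% of its exon length with Gm26885 and Junb 7.52% with Prdx2, also on the other strand and with the same doubt. Fos, Junb, Cebpb and Irf1 (5.51-fold) also answer to other signals. Further targets named after their values were seen were Bcl3 (3.31-fold), Pim3 (3.23-fold) and Mcl1 (1.67-fold), which rose.

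Other genes that STAT3 is known to drive fell. Cebpd, the sister gene of Cebpb, was at 30.2, 29.3 and 29.9 CPM in competent and at 11.0, 10.1 and 10.0 CPM in depleted samples, 2.88-fold lower (adjusted p = 1.97e-10). The groups were well apart, in the direction opposite to Cebpb, although 15.0% of the exon length of Cebpd is shared with Spidr on the other strand, with the same doubt on strand. Timp1, a protease inhibitor gene, fell 2.63-fold from 9.02 ± 0.629 to 3.43 ± 0.224 CPM, and Muc1, Ccnd1 and Birc5 had log2 changes of -0.45, -0.29 and -0.27; 23.4% of the exon length of Ccnd1 is shared with another gene. These 5 were named after their values were seen. Reg3g and Reg3b, which encode antimicrobial lectins, were not tested, with 31 and 13 reads in the competent samples together and 8 and 2 in the depleted ones, ratios of 0.298 (95% counting interval 0.118 to 0.663) and 0.178 (0.0195 to 0.785).

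Acute-phase genes, the classical output of IL-6 in liver, were mostly too low to test. Of 17 listed, 5 were tested, 4 fell and 0 rose, with a median log2 change of -1.02, where 34.3% of all genes tested fell and 34.9% rose. Fga and Apcs, named after their values were seen, were not tested, with depth-scaled ratios of 0.206 (95% counting interval 0.0622 to 0.541) and 0.133 (0.0258 to 0.435). Hp and Fgg, named likewise and not tested, went the other way. Hp had 24 reads in the competent samples together and 30 in the depleted ones, and Fgg had 0 and 6. Sums of hepatocyte and mesothelial markers were lower beside them, though not every marker fell. The 6 hepatocyte markers, of which Asgr1 and Cyp3a11 had 0 counts, summed to 18.9 to 25.8 CPM in competent and 16.1 to 18.1 CPM in depleted samples. Of the 3 tested, Ttr was lower (log2 change -0.50, adjusted p = 0.00135). Alb at -0.02 (adjusted p = 0.936) and Serpina1a at 0.10 (adjusted p = 0.615) did not pass. The 3 mesothelial markers summed to 8.06 to 8.75 CPM in competent and 5.67 to 5.9 CPM in depleted samples. Upk3b was lower (log2 change -1.12, adjusted p = 4.61e-05), and Wt1 at -0.04 (adjusted p = 0.823) did not pass. Sums of fibroblast and stellate markers and of endothelial markers were higher in depleted samples, the latter from few reads. The part of all these cells in the acute-phase values was not tested. Lcn2, which encodes lipocalin-2 and is expressed by injured epithelia, was at 111, 140.6 and 96.8 CPM in competent and at 53.9, 71.0 and 46.3 CPM in depleted samples. The groups did not overlap, and Lcn2 fell 2.03-fold (log2 change -1.02, adjusted p = 2.14e-05). Crp fell 2.5-fold from 5.5 ± 0.522 to 2.2 ± 0.0885 CPM, Fgb 3.25-fold from 0.78 ± 0.178 to 0.229 ± 0.0771 CPM, and Lbp, the gene of lipopolysaccharide-binding protein, by 0.31 on the log2 scale from 210.4 ± 11.6 to 170.3 ± 8.96 CPM. Hpx did not pass (log2 change 0.26, adjusted p = 0.115), but rose with the length trend removed (log2 change 0.46, adjusted p = 0.00797) and without competent replicate 2 (log2 change 0.38, adjusted p = 0.0279). Saa1, Orm2 and Hamp had 0 reads in all samples and Saa3 at most 1 read in a sample.

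**Figure D4:**
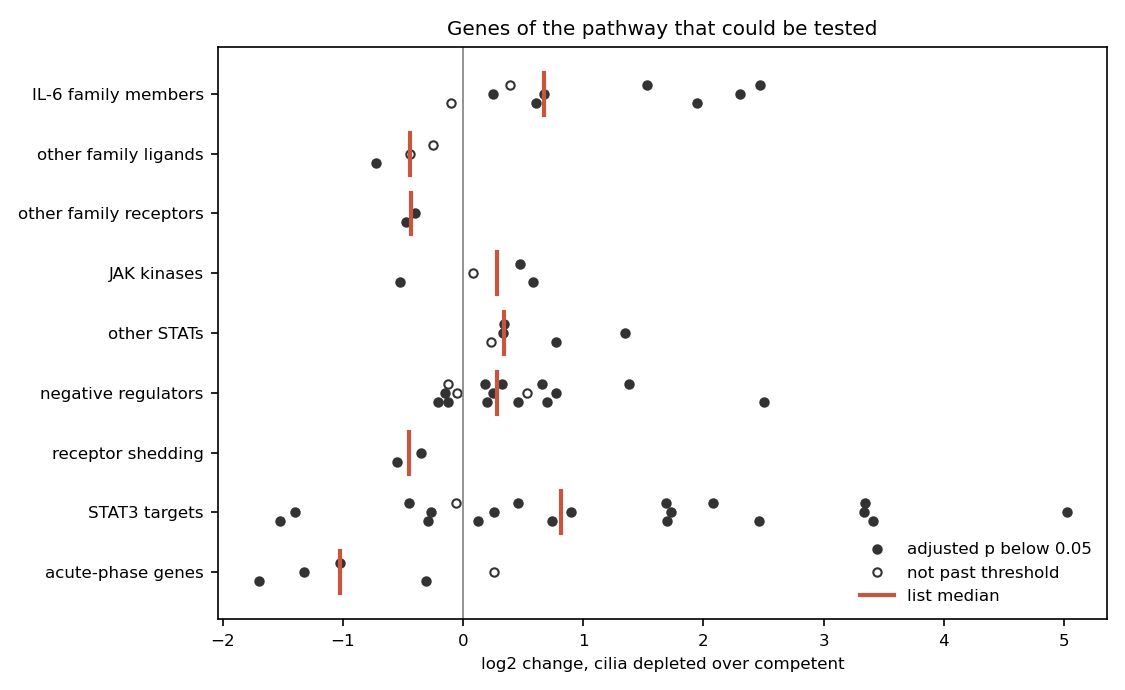
Each point is the log2 change of 1 tested gene in depleted over competent cells, by list; filled points have an adjusted p below 0.05, open points do not, and red bars are list medians. The members range from -0.10 to 2.47, STAT3 targets spread from -1.52 to 5.02, and 4 of 5 acute-phase genes lie below 0.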

How the data were processed

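RNA of 6 samples (3 per group) had been poly-A selected and made into libraries with a directional kit, per the labels' protocols. The deposited values were raw counts per Ensembl gene ID, 1 column per sample, with 0 columns of other samples. The submitters' processing notes list STAR 2.7.1a, cutadapt 1.16, DESeq2 1.34.0, featureCounts and GRCm38, without roles; annotation and strand setting are not given in the sources used here. Columns named WT were taken as cilia competent and KO as depleted, by replicate number. GENCODE M21 (GRCm38) gave positions and exon lengths for 32009 of 32061 IDs.

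Counts were tested with edgeR 4.0.16 (filterByExpr, TMM, glmQLFit and glmQLFTest, two-sided, Benjamini-Hochberg over 13839 genes); standard errors are the log2 change over the root of F. CPM values are scaled by TMM. Promoter windows came from the RefSeq table for GRCm38.p6. The length trend was removed by a loess offset per library over exon length. The code was tested on simulated counts. Chi-square per degree of freedom between samples of a group was 5.54 to 9.86, more than counting error alone gives. It cannot show whether the samples came from separate cultures. Each sample was counted once.

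Members and lists were chosen with earlier results of these data known. All members were named; of each list, the 4 largest changes past the threshold, or the 2 highest expressed where none passed. The likeness rule named Il6 and Socs3; it was void for Il6, which had at most 2 reads per sample. Cntf, Jak1, Socs2, Ptpn11, Irf1, Hif1a and Hpx were named after their values were seen. Alternatives were limma-voom (limma 3.58.1), DESeq2 1.42.0, its size factors within edgeR, upper-quartile scaling, no filter, at least 1 CPM in 3 samples, leaving out each sample, the replicate block, adjusted p below 0.01 and the length offset. Some results on listed genes are not reported here.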

Additional observations from a re-analysis of the deposited data

How the results depend on the processing

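The 9576 genes changed and the 7 members that rose were within 1.5 times under every alternative run. With the length trend removed 6 members rose (29.2% of all genes did) and 1 fell (40.1% of all genes did), since Il6st turned to a log2 change of -0.029 and Lifr passed at -0.37. In the other alternatives 7 members rose and 0 fell, leaving out each sample in turn included. Among all genes, the fewest changed in either direction at an adjusted p below 0.01 (8317 of 13839 tested). The most changed with no filter (9759 of 20554 tested), so the member counts stand beside a large background in each. Il11 passed in none of the alternatives in which it was tested (adjusted p 0.108 to 0.662). Leaving out 1 sample gave log2 changes of 2.42 to 2.52 for Lif, 1.43 to 1.59 for Clcf1, 2.21 to 2.36 for Il6ra and 1.87 to 2.00 for Socs3. With the replicate number as a block 9526 genes changed and 7 members rose; same-numbered samples did not deviate together (correlations -0.0278 to 0.0133), so the numbers were not taken as pairs. Over all genes tested the median log2 change lay at -0.006 for TMM, -0.056 for upper-quartile scaling and -0.073 for the length offset. Depth limits Il6, which was under 3 reads in every sample, and Osm, which had 0 reads, so that no difference could be read for either.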

Other observations

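The ratios of mRNA levels per length within a sample shifted between the groups. Lif stood at 23.5 to 31.1 times Lifr in the competent samples and at 153 to 188 times in the depleted samples. Clcf1 stood at 1.46 to 1.72 times Lif in competent and at 0.756 to 0.849 times Lif in depleted samples. Il6ra stood at 0.0231 to 0.0295 of Il6st in competent and at 0.1 to 0.111 in depleted samples, so gp130 mRNA stayed in excess of the IL-6 binding subunit in all 6 samples. Socs3 stood at 0.537 to 0.598 of Stat3 in competent and at 1.32 to 1.46 in depleted samples, and Osmr at 4.74 to 5.87 times Lifr against 8.31 to 9.6 times. The ratios use the exon length of the annotation and describe these samples; they were not tested.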
